A study of Saccharomyces cerevisiae with 12 samples.

Results

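The comparison set Saccharomyces cerevisiae cells lacking SBP1 (Δsbp1) against wild type cells, both sampled after 30 minutes in 0.5% sodium azide, with 2 libraries on each side, 4 of the 12 of the study. All 6352 genes of the authors' table of this comparison were taken. Both strains were BY4741, a haploid laboratory strain of mating type a, or its SBP1 deletion, grown in rich glucose medium (YEPD) to an optical density of 0.4 to 0.5 before azide was added. The other libraries, used here for comparison only, were the same strains without azide and a SCD6 deletion (Δscd6) with and without it, 2 libraries each. The labels do not say whether Δsbp1 was more than 1 clone or whether replicates were separate cultures, and the p-values therefore cover just the library-to-library spread, which may be technical.

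Sbp1 is an RNA-binding protein with RNA recognition motifs on either side of a stretch rich in arginine and glycine (an RGG motif). It binds the translation initiation factor eIF4G, represses translation and collects in P bodies, the cytoplasmic granules of mRNA decapping and decay factors. Sodium azide blocks cytochrome c oxidase and ATP synthesis, stops translation within minutes and brings on stress granules and P bodies. In stressed yeast the genes of ribosome assembly are turned down together, while a broad set of genes, many of them under the transcription factors Msn2 and Msn4, are turned up.

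Only comparison tables were analysed, with a mean normalised count over libraries, a fold change and a p-value for each gene, so values per library and depth per library are not given here. Group levels were reconstructed from the deposited mean count and the deposited fold changes, and carry no SD. A standard error (SE) was implied for each log2 change by its p-value, with a median of 0.24 over genes. Log2 changes are Δsbp1 over wild type, followed in brackets by the Benjamini-Hochberg adjusted p over 6352 genes, and the words rose and fell are kept for genes with that p under 0.05. Mean counts ran from 5.55 to 371264 with a median of 589 per the authors' deposited table. Bulk levels per cell and levels per unit of RNA cannot be told apart in such data. As markers of the strain, STE2, the receptor for alpha factor, stood at a reconstructed 3328 in wild type and 2501 in Δsbp1 cells with azide, while STE3, the receptor of alpha cells, stood at 62.5 and 48.2, and MF(ALPHA)2, an alpha factor gene, at 92.2 and 76.4. SAG1, also on the list of mating type alpha genes, was not low in this way. Its mean count over all libraries was 484 per the authors' deposited table.

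SBP1 (YHL034C) was at a reconstructed 3597 in wild type and 46.1 in Δsbp1 cells with azide, a log2 change of -6.29 ± 0.29 (SE; adjusted p = 3.8e-102) per the authors' deposited table. YHL034W-A, whose systematic name places it on the other strand of the same locus, stood at -6.38 (2.2e-81) per the authors' deposited table. Beside SBP1 on the chromosome, the vacuolar transporter gene VMR1 rose by 0.90 (0.0025) and the ribosomal protein gene RPL8A was at -0.45 (0.31) per the authors' deposited table. SCD6, the other RGG-motif gene deleted in the study, was at -0.19 (0.63) per the authors' deposited table.

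With azide, 117 of 142 ribosome assembly genes were lower in Δsbp1 than in wild type cells, and 28 of 40 general stress genes and 12 of 21 nuclear genes of cytochrome c oxidase, the bc1 complex and cytochrome c were higher. By the authors' adjusted p, 590 of the 6352 genes were higher (9.29%) and 756 lower (11.9%), 1346 in all (21.2%), and 5006 did not pass. A change of at least 1 on the log2 scale was reached by 159 of the higher and 376 of the lower genes. The median gene was at -0.015 and the interquartile range ran from -0.38 to 0.33. When the log2 changes were moved so that the reconstructed totals of both groups were equal, a shift of 0.13 on the log2 scale, 1002 genes were higher and 579 lower. The share of higher among called genes was 43.8% as deposited and 63.4% with equal totals, so the balance of rises and falls moved with the scaling. With the median gene moved to 0 the share was 46.3%. By quartile of mean count, 8% of genes were higher and 6.55% lower in the lowest, and 7.43% and 18.3% in the highest.

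**Figure D1:**
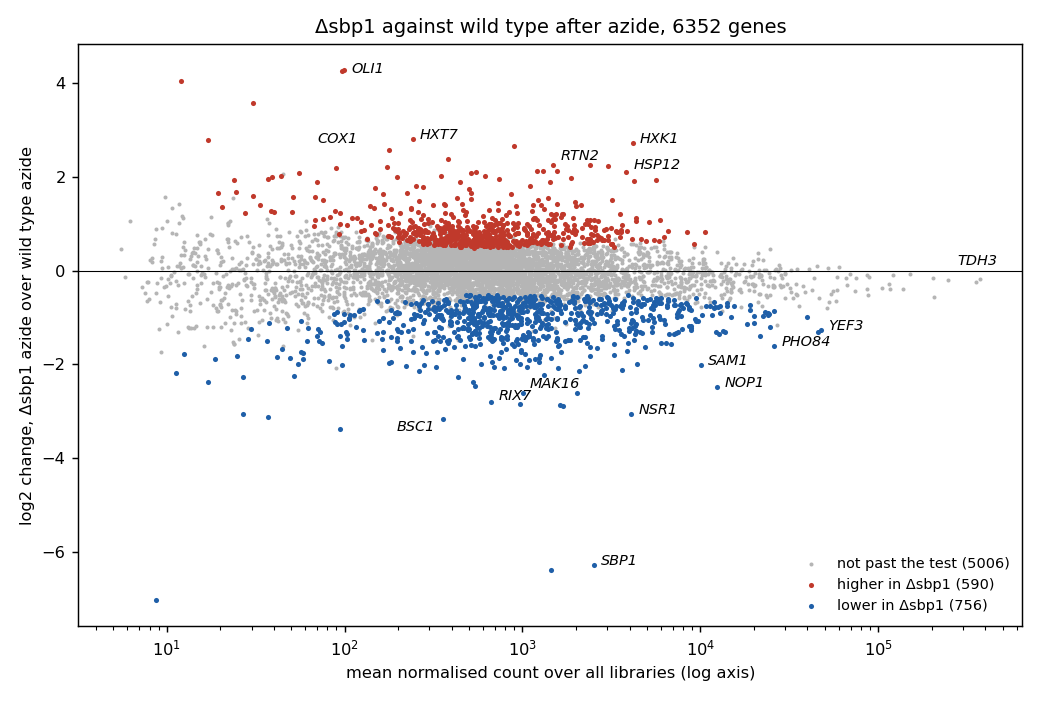
Each point is a gene, with its mean normalised count over all libraries on a log axis and its log2 change, Δsbp1 over wild type, both with azide. The 590 red genes were higher and the 756 blue genes lower at an adjusted p under 0.05, and NSR1, NOP1, RIX7 and MAK16 are among the lower genes with the largest changes.

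Of the 47 gene lists, those of ribosome assembly held the most falls. Of 68 analysed genes of the small-subunit processome and 40S assembly, 59 were lower and 0 higher, with a median of -1.02. Of 74 genes of 60S assembly, 58 were lower and 0 higher, with a median of -1.11. Both lists together gave 117 lower and 0 higher of 142, against 11.9% lower and a median of -0.015 over all genes. With equal totals 109 were lower and 1 higher, and 80 of the 142 fell by at least 1 on the log2 scale.

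RIX7, an ATPase that frees assembly factors from the pre-60S particle, was at a reconstructed 1248 in untreated and 308 in azide-treated wild type cells, and at 932 and 44 in Δsbp1 cells. Its log2 change in azide was -2.81 ± 0.27 (2.6e-22) per the authors' deposited table. The strains were thus near each other without azide and far apart with it. MAK16, a component of early pre-60S particles, stood at 1604 and 422 in the wild type and 1534 and 68.9 in Δsbp1 cells, untreated and with azide. It fell by 2.61 (1.3e-12) per the authors' deposited table. RSA4 (-2.45), PWP1 (-2.23) and the methyltransferase SPB1 (-1.95), all of 60S assembly, fell as well per the authors' deposited table.

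On the small-subunit side, NOP1, the methyltransferase of box C/D snoRNPs, went from 17942 to 5607 in the wild type and from 12469 to 998 in Δsbp1 cells, untreated to azide. Its log2 change between the strains in azide was -2.49 ± 0.39 (1.4e-08) per the authors' deposited table. The processome genes UTP13 (-2.08) and PWP2 (-1.87) and the export and assembly factors ENP1 (-1.99) and RRP12 (-1.92) fell per the authors' deposited table. NSR1, a nucleolar RGG-motif protein needed for pre-rRNA processing, had the largest fall of these nucleolar genes, from 1134 in wild type to 136 in Δsbp1 cells with azide. Its log2 change was -3.06 ± 0.25 (5.0e-31) per the authors' deposited table. SRP40, a serine-rich nucleolar chaperone of snoRNPs, fell by 2.61 (1.6e-16) per the authors' deposited table.

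The 3 genes of the assembly lists with the largest falls were RIX7, MAK16 and NOP1, and the far part of their upstream regions is shown because promoters of ribosome assembly genes are known to carry PAC and RRPE elements. The sequences are bases 300 to 101 before the start codon, 5′ to 3′ on the gene's strand, read from the R64 reference by its own annotation. The sources used here do not give the build that the authors used. Capitals mark the PAC letters GATGAG and the RRPE core AAATTTT on either strand, of which overlapping matches run together. The RIX7 window (minus strand) lies at chrXII:73247-73446, with 38 of its bases inside a neighbouring gene, that of MAK16 (minus strand) at chrI:101246-101445 and that of NOP1 (plus strand) at chrIV:427064-427263.
RIX7: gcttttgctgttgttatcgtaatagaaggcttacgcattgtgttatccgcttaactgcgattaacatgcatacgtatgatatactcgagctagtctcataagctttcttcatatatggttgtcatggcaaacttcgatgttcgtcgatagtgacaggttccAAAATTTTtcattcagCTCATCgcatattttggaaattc
MAK16: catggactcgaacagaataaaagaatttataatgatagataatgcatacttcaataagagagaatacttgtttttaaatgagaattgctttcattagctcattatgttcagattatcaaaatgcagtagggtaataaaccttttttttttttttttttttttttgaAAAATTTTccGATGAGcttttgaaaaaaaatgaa
NOP1: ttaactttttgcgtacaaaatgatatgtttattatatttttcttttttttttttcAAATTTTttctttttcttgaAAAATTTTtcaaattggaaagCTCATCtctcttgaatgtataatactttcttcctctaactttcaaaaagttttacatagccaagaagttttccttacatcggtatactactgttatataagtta
In each of the 3 windows a PAC match stands downstream of an RRPE core match.

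Over all genes with an upstream window of 300 bases, 5754 in number, PAC letters were present in 18.5% and the RRPE core in 25.1%, either strand counted. Among genes lower in Δsbp1 the shares were 41.9% and 47.7%, and among higher genes 12% and 17.6%. The 142 assembly genes held PAC in 85.9% and the RRPE core in 95.8%, and the 138 ribosomal protein genes in 11.6% and 29%. Among lower genes outside the assembly lists, PAC was present in 32% and the RRPE core in 37.3%. Of the 450 windows with both (7.82%), 45.8% belonged to lower and 3.33% to higher genes, with a median log2 change of -0.55. Both motifs were present in 103 of the 117 assembly genes that fell (88.0%). A match is a description of letters, not of a factor's binding.

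RNA polymerase I makes the large rRNA precursor. Of 17 genes of the polymerase and its Rrn factors 10 were lower (58.8%) and 0 higher, with a median of -1.13. Over all genes 11.9% were lower. The largest subunits RPA190 and RPA135 were at -1.55 (1.5e-09) and -1.73 (3.1e-13) per the authors' deposited table. The ribosomal proteins themselves gave 4 lower and 0 higher of 138, with a median of -0.13, a share of lower genes below that of all genes. The 4 were RPL18B (-1.07), RPL7B (-0.87), RPS0B (-0.85) and RPS0A (-0.84) per the authors' deposited table. Each has a near-identical copy whose reads the counting could split, and with equal totals 2 genes of the list were lower and its median was at -0.003.

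Of 14 elongation and termination factors 5 were lower (35.7%) and 0 higher, with a median of -0.56, against 11.9% lower over all genes. YEF3, elongation factor 3, went from a reconstructed 29030.0 in the wild type to 12037 in Δsbp1 cells with azide, a change of -1.27 (0.0020) per the authors' deposited table. Of 18 initiation factors outside eIF4F 6 were lower and 0 higher (median -0.30), among them the eIF2B subunit GCD1 at -1.02 and TIF5 (eIF5) at -0.79 per the authors' deposited table. Of 9 genes of eIF4F and its partners 3 were lower and 0 higher (median -0.52). TIF4631, which encodes the eIF4G that Sbp1 binds, was at 1833 in wild type and 1057 in Δsbp1 cells with azide, a change of -0.79 ± 0.21 (0.0017) per the authors' deposited table. Of 20 cytosolic aminoacyl-tRNA synthetases 6 were lower and 0 higher (median -0.31). With equal totals these counts of lower genes became 4, 4, 2 and 4.

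The machinery of P bodies is that of mRNA decay. Of 17 decapping and 5′ decay genes 1 was higher and 0 lower, against 9.29% higher and 11.9% lower over all genes. DCS1, a scavenger enzyme that hydrolyses the cap after decay, was the one, at 1.11 ± 0.22 (1.4e-05) per the authors' deposited table. The decapping enzyme gene DCP2 was at 0.23 (0.46), the helicase DHH1 at -0.39 (0.38), the decapping activator PAT1 at -0.55 (0.16) and XRN1, the 5′ exonuclease, at -0.46 (0.20) per the authors' deposited table. DCS2, the paralog of DCS1 that inhibits it and is outside the list, rose by 2.13 (8.9e-20) per the authors' deposited table. Of 12 deadenylase genes 0 passed (2 had an unadjusted p under 0.05), of 9 genes of nonsense-mediated decay and the Ski complex 1 was higher (NMD4), and of 14 exosome genes 1 was lower, the nuclear helicase MTR4 at -1.88 (6.8e-16) per the authors' deposited table. These p-values above the threshold do not show that the transcripts were equal in both strains.

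Of 10 genes of RGG-motif RNA-binding proteins, the family of Sbp1 without SBP1 itself, 6 were lower (60%) and 0 higher. The list's median was -0.82, and 11.9% of all genes were lower. NSR1, NOP1 and GAR1 (-1.29) of the 6 are nucleolar. The others were the mRNA export and splicing factor NPL3 (-1.11), PSP2 (-0.87) and the helicase DED1 (-0.77) per the authors' deposited table. Of 18 stress granule RNA-binding proteins 6 were lower (33.3%) and 0 higher, with a median of -0.49. NRP1 (-1.18), the cyclin mRNA binder WHI3 (-1.10) and VTS1 (-1.09), which binds stem-loops and promotes deadenylation, fell most per the authors' deposited table. PAB1, the poly(A)-binding protein, was at -0.64 (0.069) and PUB1 at -0.35 (0.34) per the authors' deposited table.

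**Figure D2:**
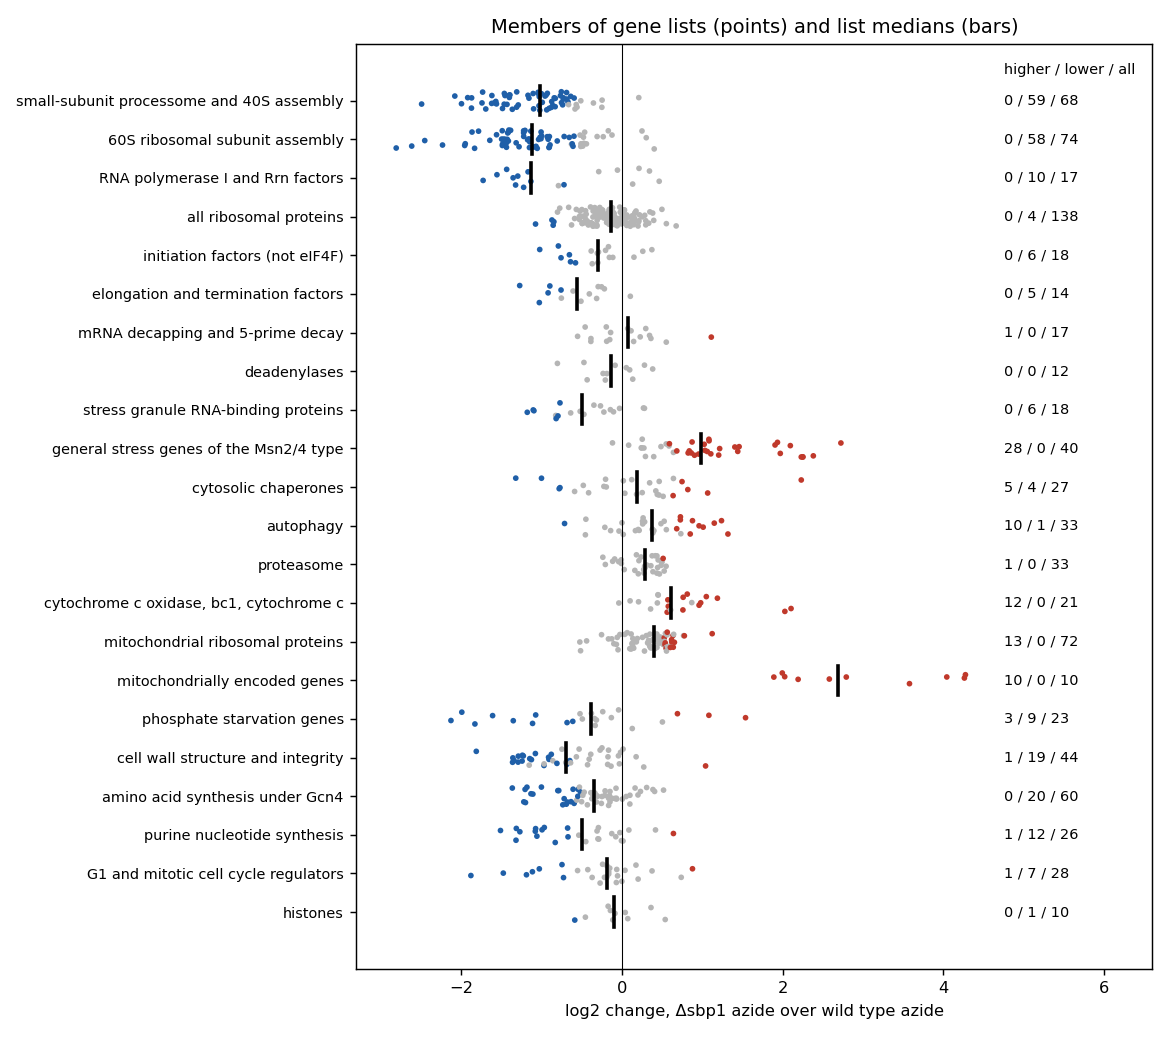
Each point is a member of a gene list with its log2 change, Δsbp1 over wild type in azide, red where higher and blue where lower at an adjusted p under 0.05 and grey otherwise, and each bar is the list's median. Numbers at the right give members higher, lower and analysed, from 0, 59 and 68 for the small-subunit processome to 28, 0 and 40 for general stress genes.

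The list with the most rises was that of general stress genes. Of 40 genes of the Msn2/4 type 28 were higher (70%) and 0 lower, with a median of 0.99, against 9.29% higher over all genes. Of the 40, 20 rose by at least 1 on the log2 scale. Their difference was present without azide as well, where 26 of the 40 were higher (median 1.13), against 98 genes higher (1.54%) and 28 lower (0.441%) in the untreated table as a whole. HXK1, a hexokinase made when glucose is low, was at 1127 untreated and 1609.9 with azide in the wild type, and at 6883 and 10644 in Δsbp1 cells. It rose by 2.73 ± 0.26 in azide (9.1e-23) and by 2.61 without it (1.0e-20) per the authors' deposited table. Untreated Δsbp1 cells were thus already above azide-treated wild type cells for this gene.

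RTN2, an endoplasmic reticulum membrane-shaping protein, was low in both strains without azide, at 163 and 397, and reached 1131 in wild type and 5389 in Δsbp1 cells with it. Its log2 change was 2.25 ± 0.26 (6.8e-16) in azide per the authors' deposited table. The ribosome-associated protein TMA10 rose by 2.38, the small heat shock protein HSP26 by 2.23 and the aldehyde dehydrogenase ALD3 by 2.25 per the authors' deposited table; ALD3 has a near-identical copy, ALD2. Glycogen phosphorylase GPH1 (1.97), phosphoglucomutase PGM2 (1.94) and catalase CTT1 (1.22) rose per the authors' deposited table. HSP12, a membrane-bound stress protein, was at 184 and 2768 in the wild type and 4058 and 11834 in Δsbp1 cells. It was higher by 4.46 untreated (2.0e-14) and by 2.10 in azide (1.7e-04) per the authors' deposited table.

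The upstream regions of stress genes that rose are shown for the stress response element (STRE), the site of Msn2 and Msn4. RTN2, ALD3 and HSP12 are the stress-list genes with the largest rises among those whose 300-base window holds the letters AGGGG on either strand, which capitals mark; the windows of HXK1 and TMA10 hold none. The bases shown are again 300 to 101 before the start codon in R64, at chrIV:94305-94504 for RTN2 (plus strand), chrXIII:600973-601172 for ALD3 (minus strand) and chrVI:106956-107155 for HSP12 (plus strand), the last with 8 bases inside a neighbouring gene.
RTN2: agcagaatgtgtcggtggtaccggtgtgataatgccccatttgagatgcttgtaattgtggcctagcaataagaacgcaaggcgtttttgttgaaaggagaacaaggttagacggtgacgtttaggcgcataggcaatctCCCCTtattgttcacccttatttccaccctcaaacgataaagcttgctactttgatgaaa
ALD3: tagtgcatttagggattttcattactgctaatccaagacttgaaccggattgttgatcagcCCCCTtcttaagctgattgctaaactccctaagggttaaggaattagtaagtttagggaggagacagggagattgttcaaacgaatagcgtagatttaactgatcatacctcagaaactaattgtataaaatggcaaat
HSP12: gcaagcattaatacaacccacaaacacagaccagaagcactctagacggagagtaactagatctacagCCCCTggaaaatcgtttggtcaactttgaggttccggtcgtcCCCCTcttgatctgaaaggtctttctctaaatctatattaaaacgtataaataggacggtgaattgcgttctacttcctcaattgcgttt
STRE letters were present in 22.6% of all windows, in 45.1% of those of higher genes and in 15.7% of those of lower genes. Of the 28 stress genes that rose 21 (75%) held them. The whole list of 40, which is named for Msn2 and Msn4, held them in 72.5%, so the letters do not set apart its members that rose. Of higher genes outside the list 43.5% held them.

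**Figure D3:**
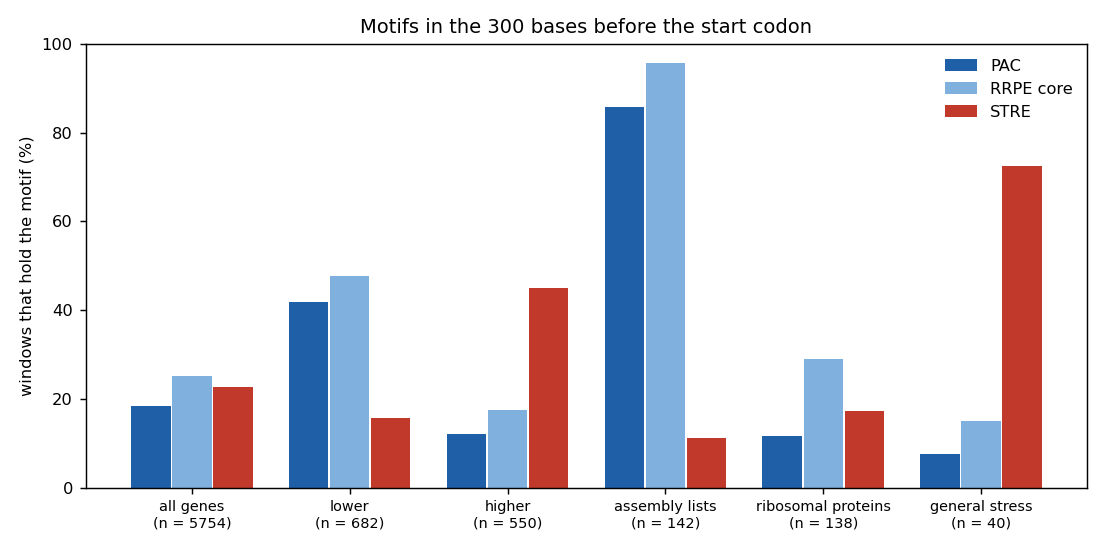
Bars give the percentage of 300-base upstream windows that hold each motif on either strand, for all genes, genes lower or higher in Δsbp1 with azide, and 3 groups of genes. PAC was present in 18.5% of all and 85.9% of assembly windows, and STRE in 22.6% of all and 72.5% of general stress windows.

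Of 27 cytosolic chaperone genes 5 were higher (18.5%) and 4 lower (14.8%), against 9.29% and 11.9% over all genes, and with equal totals 8 were higher and 3 lower. The disaggregase HSP104 (0.82) and the inducible Hsp70 SSA4 (1.07) rose, and SSB1 (-1.32) and SSB2 (-1.0), the Hsp70s that sit on ribosomes and share most of their sequence, fell per the authors' deposited table. Oxidative stress genes of the Yap1 type gave 6 of 22 higher and 1 lower, led by the peroxidases GPX1 at 1.79 and TSA2 at 1.21, with the sulfiredoxin SRX1 at -1.07 (0.041) per the authors' deposited table. Of 33 autophagy genes 10 were higher and 1 lower (median 0.38). ATG8, the ubiquitin-like protein of the autophagosome membrane, was at 479 in wild type and 1063 in Δsbp1 cells with azide, a rise of 1.15 (5.2e-05) per the authors' deposited table. The scaffold ATG17 (1.24) and the receptor ATG34 (1.32) rose too per the authors' deposited table. Of 33 proteasome genes 1 was higher and 0 lower, a count that became 13 with equal totals.

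Of 21 nuclear genes of cytochrome c oxidase, the enzyme azide blocks, with the bc1 complex and cytochrome c, 12 were higher (57.1%) and 0 lower. The median of this list was 0.61, and over all genes 9.29% were higher and 11.9% lower. CYC7, the cytochrome c isoform of low oxygen and stress, was at 23.9 and 472 in the wild type and 87.9 and 2030.1 in Δsbp1 cells, and rose by 2.10 ± 0.32 in azide (6.5e-09) per the authors' deposited table. COX26, a small protein of respiratory supercomplexes, rose by 2.03, COX5B by 1.19 and COX12 by 1.05 per the authors' deposited table. Of 72 mitochondrial ribosomal proteins 13 were higher (18.1%) and 0 lower (median 0.40). Nuclear ATP synthase genes gave 3 higher (18.8%) and 0 lower of 16. The tricarboxylic acid cycle gave 4 higher (22.2%) and 1 lower (5.56%) of 18. With equal totals the higher counts of these 4 lists were 17, 28, 7 and 5. At an adjusted p under 0.01 they were 8, 2, 1 and 1. MPC3, a subunit of the mitochondrial pyruvate carrier used in respiratory growth, rose by 2.0 (2.1e-15) per the authors' deposited table.

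Of 26 listed genes of the mitochondrial genome 10 were analysed, and the 10 were higher in azide, with a median of 2.69 and implied errors up to 1.54. In untreated cells their median was -1.73, with 0 past the test. COX1, the catalytic subunit of cytochrome c oxidase, was at 255 untreated and 66.1 with azide in the wild type, and at 74.8 and 396 in Δsbp1 cells. Its change was 2.58 ± 0.72 in azide (0.0035) and -1.77 untreated (0.24) per the authors' deposited table. OLI1, a subunit of ATP synthase, was at 4.27 ± 1.06 (8.1e-04) per the authors' deposited table. Of the 10, 7 are COX1 and open reading frames named for its introns, so they share a transcript, and only COX1 had a mean count of at least 100. Their median in Δscd6 against wild type with azide, which uses the same wild type libraries, was 2.13.

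**Figure D4:**
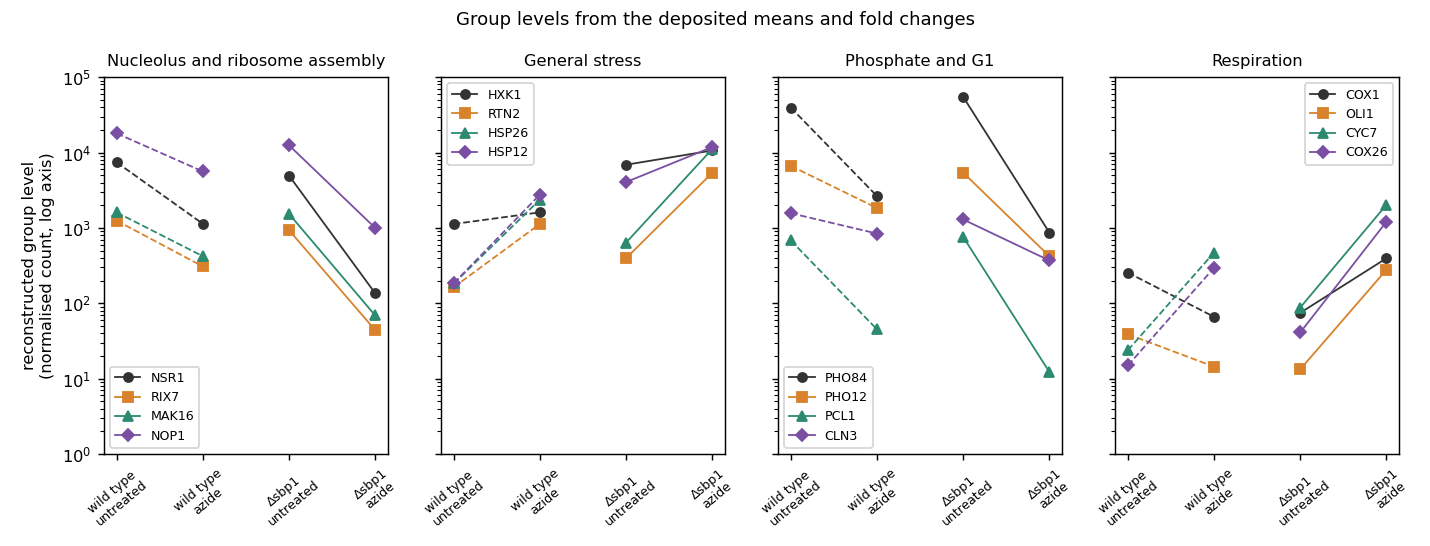
Reconstructed group levels on a log axis for 16 genes, dashed lines for the wild type and solid lines for Δsbp1, each from untreated to azide; there are no error bars because no library values were held. NSR1 reaches 1134 in wild type and 136 in Δsbp1 cells with azide, and HXK1 1609.9 and 10644.

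Of 23 phosphate starvation genes 9 were lower (39.1%) and 3 higher (13%), with a median of -0.38, against 11.9% and 9.29% over all genes. PHO84, the high-affinity phosphate transporter, was at 39415 and 2640.2 in the wild type and 54632 and 867 in Δsbp1 cells, untreated and with azide. It fell by 1.61 ± 0.34 in azide (4.1e-05) per the authors' deposited table. The sodium-phosphate symporter PHO89 (-1.83) and the acid phosphatases PHO12 (-2.12) and PHO11 (-1.99), near-identical copies of each other, fell as well, and PHM7 rose by 1.54 per the authors' deposited table. The site CACGTG bound by Pho4 was present in 47.8% of the upstream windows of this list and in 3.61% of all. It was present in 5.43% of the windows of lower genes and 3.09% of those of higher genes. The median log2 change was -0.072 with the site and -0.005 without it.

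Of 44 genes of cell wall structure and integrity 19 were lower (43.2%) and 1 higher (2.27%), with a median of -0.69. Over all genes 11.9% were lower and 9.29% higher. Untreated, 0 of the 44 were lower and 2 higher. A call under one condition and not the other does not show a difference between them. When the difference of both log2 changes was tested, 4 of the 44 were more negative in azide and 0 more positive. MSB2, a mucin that senses osmotic and nutrient state, was at 532 in wild type and 152 in Δsbp1 cells with azide, a change of -1.81 ± 0.28 (1.3e-08) per the authors' deposited table. The related mucin HKR1 (-1.36), the transglycosylase CRH1 (-1.35) and the transcription factor RLM1 (-1.34), the end point of the cell wall integrity pathway, fell per the authors' deposited table. Hypoxic and mannoprotein genes gave 8 lower (36.4%) and 2 higher (9.09%) of 22, the mannoproteins TIR1 at -2.13 and TIR4 at -2.05 per the authors' deposited table. TOS6, a cell wall protein, fell by 2.86 ± 0.53 (2.3e-06), BSC1 was at -3.17 (4.1e-08) and the nearby PRM7 at -2.85 (3.2e-10) per the authors' deposited table. BSC1 and PRM7 were lower without azide as well, at -2.33 (0.0020) and -2.31 (7.9e-06) per the authors' deposited table. VRP1, which binds actin and the actin nucleator, fell by 2.09 ± 0.58 (0.0032), and OPI9, which has an adjacent systematic name and no match in R64, by 2.28 (0.0043) per the authors' deposited table.

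Of 60 amino acid synthesis genes under Gcn4 20 were lower (33.3%) and 0 higher (median -0.35). Over all genes 11.9% were lower and 9.29% higher. With equal totals the counts of this list fell to 10 lower and 1 higher. The acetolactate synthase subunit ILV6 (-1.36) and LYS4 of lysine synthesis (-1.22) were the furthest down per the authors' deposited table, while GCN4 itself was at -0.21 (0.63). The Gcn4 site TGACTC stood in 66.7% of the windows of this list, which is named for Gcn4, and in 7.96% of all. It stood in 9.97% of the windows of lower genes and 8.55% of those of higher genes. The median log2 change was -0.0065 with the site and -0.008 without it. Of 26 purine genes 12 were lower (46.2%) and 1 higher (3.85%), with GUA1, GMP synthase, at -1.31 and ADE17 at -1.08 per the authors' deposited table. SAM1, which makes S-adenosylmethionine, was at 6939 in wild type and 1724 in Δsbp1 cells with azide and fell by 2.01 ± 0.33 (5.1e-08) per the authors' deposited table. Of 26 amino acid and ammonium permeases 8 were lower (30.8%) and 0 higher, TAT1 the most at -1.33 (1.7e-08) per the authors' deposited table. Of 22 lipid synthesis genes 7 were lower (31.8%) and 2 higher (9.09%). The median of this list was 0.08, with 12 positive and 10 negative values. Among the 7 were the desaturase OLE1 at -1.26 and the elongase ELO3 at -1.36 per the authors' deposited table.

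Of 28 G1 and mitotic regulators 7 were lower (25%) and 1 higher (3.57%), with a median of -0.185. Over all genes 11.9% were lower and 9.29% higher. PCL1, a G1 cyclin of the kinase Pho85, went from 681 to 45.1 in the wild type and from 759 to 12.3 in Δsbp1 cells, untreated to azide, and its change in azide was -1.88 ± 0.38 (1.5e-05) per the authors' deposited table. The G1 cyclins CLN3 (-1.19) and CLN2 (-1.11) and RNR1 (-1.03), the large subunit of ribonucleotide reductase, fell as well per the authors' deposited table. WHI5, of the same list, fell by 1.47 (0.046) per the authors' deposited table and no longer passed with equal totals. Of 10 histone genes 1 was lower (10%), HTB2 at -0.58 (0.047) per the authors' deposited table. With equal totals 0 histone genes were lower and 1 higher. Of 19 mating type a and pheromone genes 4 were lower (21.1%) and 1 higher (5.26%). AGA1, the anchor of the a-agglutinin, was at -1.51 (0.0012) per the authors' deposited table.

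HXT7, a high-affinity hexose transporter with the near-identical copy HXT6, had the largest rise among genes named by size, 2.82 ± 0.61 (8.8e-05) per the authors' deposited table, with reconstructed levels of 35.1 and 247. Against 9.29% higher and 11.9% lower over all genes, of 20 hexose transporters and sensors 1 was higher and 2 lower, and of 19 glycolysis and fermentation genes 0 and 1. Of 19 genes of gluconeogenesis and acetate use 3 were higher and 0 lower, of 30 peroxisomal genes 5 and 1, of 30 iron genes 0 and 5, of 24 ergosterol genes 0 and 5, and of 30 sulfur genes 1 and 4. With equal totals peroxisomal genes gave 9 higher and ergosterol genes 2 higher and 3 lower. Pdr1-type transporters gave 1 higher and 3 lower of 13, meiosis genes 0 and 1 of 20, subtelomeric families 0 and 5 of 21, genes of mating type alpha 0 and 0 of 3, and the auxotrophic marker HIS3 did not pass (-0.48, 0.32 per the authors' deposited table). Other large rises were those of LDS2, an outer spore wall lipid droplet protein (2.21), RGI1, a protein of energy metabolism (2.12), and FMP16 (2.08) per the authors' deposited table.

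The difference between the strains in azide was set against that without azide, 2 comparisons that share no library. By the difference of log2 changes over its implied error, 42 of 5848 genes were more positive in azide (0.718%) and 123 more negative (2.1%). Of the 142 assembly genes 26 were more negative and 0 more positive. Without azide, 7 of the 142 were lower, and the median was -0.41 there against -1.04 in azide. The differences were -2.55 ± 0.45 for MAK16 (adjusted p = 1.3e-05), -2.48 ± 0.34 for NSR1 (8.5e-10) and -2.38 ± 0.35 for RIX7 (3.0e-08). General stress genes gave 1 more positive and 4 more negative of 40. PHO84 was at -2.08 ± 0.47 (0.0016), MSB2 at -2.03 ± 0.39 (8.0e-05) and PCL1 at -2.03 ± 0.45 (0.0013). Of the 10 mitochondrially encoded genes 9 were more positive.

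Over the whole table, 73 of the 98 genes higher in untreated Δsbp1 cells were higher in azide (74.5% of them, 12.4% of the 590) and 0 lower, and 19 of the 28 lower were lower in azide (67.9%, and 2.51% of the 756) and 0 higher. Of the 590 higher genes 482 had a positive value untreated, with medians of 0.81 in azide and 0.27 untreated. Of the 756 lower genes 568 had a negative value untreated, with medians of -1.0 and -0.23. Across the 6352 genes Pearson's r was 0.39 and Spearman's rho 0.33, a description over genes that share normalisation and are not replicates.

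**Figure D5:**
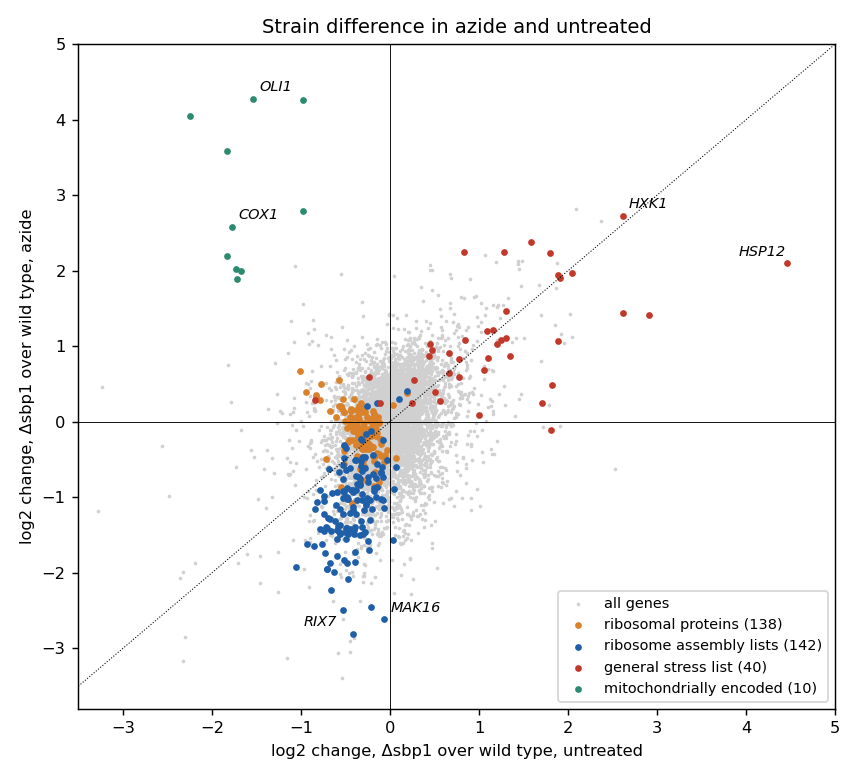
Each point is a gene, with its log2 change Δsbp1 over wild type untreated (x) and with azide (y); the dotted line marks equal values, and 4 genes lie outside the axes. Assembly genes have medians of -0.41 untreated and -1.04 with azide, and general stress genes of 1.13 and 0.99.

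The genes that differed between the strains in azide were also set against the azide response of Δscd6, which uses none of these 4 libraries. Of 1404 genes that azide raised in Δscd6 cells, 419 were higher in Δsbp1 than in wild type cells with azide (29.8%, and 71% of the 590) and 22 lower. Of 1297 genes that azide lowered there, 478 were lower here (36.9%, and 63.2% of the 756) and 8 higher. Of the 3651 that did not pass there, 163 were higher and 256 lower. Across genes Pearson's r was 0.55 and Spearman's rho 0.60.

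The Δscd6 strain against the same wild type azide libraries gave 129 genes higher (2.03%) and 145 lower (2.28%). Because the wild type libraries are shared, values are given side by side only. Of the 590 genes higher in Δsbp1, 36 were higher in Δscd6, 8 were lower and 546 did not pass. Of the 756 lower in Δsbp1, 29 were lower in Δscd6, 22 were higher and 705 did not pass. Of the 142 assembly genes 7 were higher and 0 lower there, with a median of 0.07. Per the authors' deposited table, NSR1 was at 0.81 (0.012) in Δscd6 and -3.06 in Δsbp1, SPB1 at 1.31 (2.4e-05) and -1.95, PCL1 at 2.98 (6.5e-21) and -1.88, and PHO84 at 1.65 (1.1e-04) and -1.61. HXK1 was at 1.23 (9.0e-05) and 2.73, and RTN2 at 0.51 (0.29) and 2.25, per the authors' deposited table. General stress genes gave 7 higher and 5 lower of 40 in Δscd6. Phosphate starvation genes gave 2 higher and 3 lower of 23, and G1 and mitotic regulators 11 and 0 of 28. The single genes named are examples and do not stand for their lists. The difference between both deletion strains was not tested.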

How the data were processed

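Per the labels' protocols, RNA came from a hot-phenol extraction and the libraries from a NEBNext RNA II kit for Illumina. The submitters' processing notes list STAR 2, Picard, featureCounts and edgeR with neither role nor setting. Not given in the sources used here are the build, the annotation, the strandedness and how multi-mapped reads were counted, so genes that overlap on opposite strands, and near-identical copies, may share reads. Per the file headers, the 7 tables deposited by the authors hold for each of 6352 genes a p-value, its adjusted form, a log2 change, the same change as a linear fold (ratio), and a normalised count averaged over libraries (a signal). Benjamini-Hochberg adjustment of the deposited p-values gave the deposited adjusted values to within 6.9e-09. Which libraries entered the authors' fit is likewise not given. The planned count test needed values per library, so the authors' adjusted p under 0.05 was used instead.

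Levels of the 6 groups were reconstructed by splitting the mean count, taken as the mean over all libraries, by the deposited fold changes. The implied SE divides the size of a log2 change by the normal quantile of its p, and was left out for 221 genes with a log2 change under 0.02 in size. Differences between azide and untreated were tested two-sided against a normal distribution with both errors. The step was run on simulated data with normal errors and p-values made from them. Such data cannot show whether a normal error fits the authors' p-values. Alternatives were an adjusted p under 0.01, a log2 change of at least 1, a mean count of at least 100, equal totals, the median gene at 0, and a larger variance. Named genes are SBP1, SCD6 and the neighbours of SBP1; the 15 largest rises and falls with a standard name and a mean count of at least 100; of each of 47 lists up to 5 members past the test, and up to 2 others where fewer than 2 passed; and the 5 largest differences in each direction. GCN4, DCP2, DHH1, PAB1, PUB1, STE2, STE3, GPH1, PGM2, CTT1, DED1 and CLN2 are named for their roles, with their values known. The members and lists were chosen with earlier results of these data known. Of the IDs, 5764 matched R64, and 5750 of 5754 upstream windows were followed by ATG. The work ran in Python 3.11.15 (scipy 1.17.1, numpy 2.4.6, pandas 2.3.3), with figures by matplotlib 3.10.9.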

Additional observations from a re-analysis of the deposited data

Results flagged for a closer look

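The difference between the strains was not the same with and without azide for 10 genes named by the size of that difference, each tested by the difference of both log2 changes over its implied error, adjusted by Benjamini-Hochberg over 5848 genes. More negative in azide were MAK16 by -2.548 (adjusted p = 1.3e-05), NSR1 by -2.479 (8.5e-10), TOS6 by -2.457 (0.030), RIX7 by -2.385 (3.0e-08) and HSP12 by -2.366 (0.034). HSP12 was higher in Δsbp1 under both conditions, by 4.46 untreated and 2.10 in azide per the authors' deposited table. More positive in azide were COX1 by 4.352 (0.0024), RRT1 by 1.935 (0.0027), MVB12 by 1.778 (0.043), FMP23 by 1.563 (0.018) and MPC3 by 1.552 (0.0031). COX1, RRT1, MVB12 and FMP23 had negative values untreated, none past the test, and positive ones in azide. RRT1 was at 50 and 166 in wild type and 26.7 and 339 in Δsbp1 cells, untreated and with azide.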

How the results depend on the processing

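No paired analysis was possible because the tables hold comparisons of groups and no value per library; for the same reason leaving out each replicate could not be run. At an adjusted p under 0.01, 327 genes were higher and 476 lower in Δsbp1 with azide, and 17 and 56 were more positive and more negative in azide than untreated. With an absolute log2 change of at least 1, 159 were higher and 376 lower. With equal reconstructed totals 1002 were higher. The counts under a mean of at least 100, under the median gene at 0 and under the larger variance of both routes stayed within 1.5 times those reported. Of the named genes' log2 changes, 189 kept their direction and side of the threshold with equal totals, 19 no longer passed (among them SSB2, EFT1, SRX1, WHI5, TIF3 and HTB2) and 1 newly passed, HHT1. With the median gene at 0, 1 no longer passed, HTB2. No named gene that passed changed sign under either scaling. Of 49 list medians, 1 moved beyond the median error of its members, that of hexose transporters, to 0.29 among members with a mean of at least 100. Without library values the depth and the spread within a group remain unknown here.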
